A study of Mus musculus with 6 samples.

Results

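The 10 genes described here encode the AMPA receptor of glutamate synapses and proteins that bind to it in the membrane: the 4 pore-forming subunits Gria1, Gria2, Gria3 and Gria4, and 6 auxiliary proteins, Cacng2, Cacng3, Cnih2, Cnih3, Shisa9 and Gsg1l. They were taken by name, by their membership of the receptor complex, with earlier results of these data known. All 10 were found among the 55401 genes counted and among the 19969 genes with enough counts to be tested. RNA-seq of the dorsal hippocampus was compared between 3 WT mice injected with Control-ASO and 3 WT mice injected with Snhg11-ASO, to ask which transcripts change when the lncRNA Snhg11 is knocked down in the dentate gyrus (DG). An antisense oligonucleotide (ASO) pairs with its target RNA and directs RNase H to cut it, and the Control-ASO holds the same nucleotides in scrambled order. All mice were males of 4 months, wild-type littermates of the trisomic Ts65Dn line, injected on both sides in the dorsal DG and dissected 3 days later, so both groups share the surgery and an oligonucleotide, and no uninjected mouse was sequenced. The labels give the genotype of the first group as WT and that of the second as Snhg11 KD. The injection was aimed at the DG, but the RNA came from the whole dorsal part of the hippocampus, with CA1, CA2, CA3 and all glia in it.

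AMPA receptors carry most of the fast excitatory transmission in the brain. They are assembled from 4 subunits around a cation channel, and in the hippocampus complexes of Gria1 with Gria2 and of Gria2 with Gria3 are the best known. The auxiliary proteins set how many receptors reach the synapse and how fast they close and recover: Cacng2 (stargazin) and Cacng3 are transmembrane AMPA receptor regulatory proteins (TARPs), Cnih2 and Cnih3 are cornichon homologues that help receptors leave the endoplasmic reticulum and slow their closing, Shisa9 (CKAMP44) slows recovery from desensitization, and Gsg1l reduces receptor currents. Delivery of AMPA receptors to synapses is a main route of long-term potentiation in the hippocampus.

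The 4 subunits are related in sequence, and the stretch that lines the pore shows how close they are and why their reads could still be told apart. The coding bases of this pore loop are given below on the transcript strand from GENCODE M21 transcripts on GRCm38, 56 bases each within 1 exon, with the glutamine codon of the Q/R site in capitals. In Gria2 this codon is changed in nearly all mRNA by A-to-I editing by the enzyme ADAR2 (Adarb1), which makes channels with Gria2 almost impermeable to calcium. Counts per gene do not show editing.
Gria1: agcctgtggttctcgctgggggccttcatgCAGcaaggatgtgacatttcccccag
Gria2: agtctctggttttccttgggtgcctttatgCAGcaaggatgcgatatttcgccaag
Gria3: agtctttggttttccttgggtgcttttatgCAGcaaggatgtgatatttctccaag
Gria4: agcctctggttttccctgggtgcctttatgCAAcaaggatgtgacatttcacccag
The Gria1 stretch lies at chr11:57243064-57243119 on the plus strand in exon 11 of 16 of Gria1-201, and differed from Gria2 at 11 of the 56 bases. The Gria2 stretch lies at chr3:80706888-80706943 on the minus strand, in exon 11 of 16 of Gria2-201. The Gria3 stretch lies at chrX:41610235-41610290 on the plus strand, in exon 11 of 16 of Gria3-201, and differed from Gria2 at 4 bases. The Gria4 stretch lies at chr9:4464114-4464169 on the minus strand, in exon 12 of 17 of Gria4-201, and differed at 7. Gria4 alone spells the codon CAA, and the other three spell it CAG. Between the longest coding transcripts of the 4 genes, 0 windows of 50 bases were shared.

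The targeted RNA was read first, in CPM (a gene's counts relative to the library's total, scaled by TMM factors). Snhg11 had 551, 436 and 209 CPM in the 3 mice with Control-ASO (replicates 1, 2 and 3 in this and later sentences), while the 3 with Snhg11-ASO had 139, 65.4 and 69.4 CPM. It was lower in every Snhg11-ASO mouse (log2 fold change -2.13, standard error 0.43), and without replicate 1 of Snhg11-ASO the value was -2.56. Its adjusted p was 0.395 in edgeR, and DESeq2 called it at an adjusted p of 6.2e-05. Between 28951250 and 43997537 read pairs per library were assigned to genes, more in each Snhg11-ASO library than in any Control-ASO library. Snhg11-ASO replicate 1 stood apart, with Spearman correlations over genes of 0.958 to 0.959 with its group, against 0.983 to 0.991 for all other pairs within a group. The fold change of each of the 10 genes is therefore also given without it.

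None of the 10 AMPA receptor genes passed the threshold, an adjusted p of 0.05 over all genes tested (quasi-likelihood test of edgeR, Benjamini-Hochberg method), and that test called 0% of all genes. At an unadjusted p under 0.05, 4 of the 10 were lower in Snhg11-ASO (Gria4, Cnih3, Shisa9 and Gsg1l) and 0 were higher, where 4.43% of all genes tested were lower at that level. The ranges of the groups were apart, with Snhg11-ASO lower, for 6 of the 10 (those 4, Gria3 and Cacng2), as for 7.7% of all genes. DESeq2 also called 0 of the 10 at an adjusted p of 0.05, while it called 0.885% of genes lower, and it placed the same 4 genes at an unadjusted p under 0.05. The median log2 fold change was -0.18 over the 10 genes, against 0.0097 over all genes tested. It was -0.095 over the 4 subunits and -0.29 over the 6 auxiliary proteins. Over 28 further auxiliary and assembly genes, described below, it was -0.014. In whole tissue, less RNA per cell and fewer cells of the kind that express a gene cannot be told apart.

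Genomic span moved with these values. Genes that span over 200 kb numbered 986, their median log2 fold change was -0.17, and 24.4% of them were lower at an unadjusted p under 0.05. Of the 10 AMPA receptor genes 5 are that long (Gria1, Gria3, Gria4, Shisa9 and Gsg1l), while the median span of all genes tested was 16.9 kb. The count of the 10 genes lower at an unadjusted p under 0.05 was then repeated in other fits. With each sample's trend with span removed it was 3 (Cnih3, Shisa9 and Gsg1l), where 3.56% of all genes were lower at that level, and with the replicate number as a block beside that correction it was 4 (3.77% of all genes). Without Snhg11-ASO replicate 1 it was 4 (5.54% of all genes). It was also 4 without Control-ASO replicate 2 (4.84%), and it was 3 without Snhg11-ASO replicate 2 (3.75%) or replicate 3 (3.48%). Without Control-ASO replicate 1 it was 2, Gria4 and Gsg1l (2.59% of all genes), and without Control-ASO replicate 3 it was 2, Shisa9 and Gsg1l (2.74%).

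**Figure D1:**
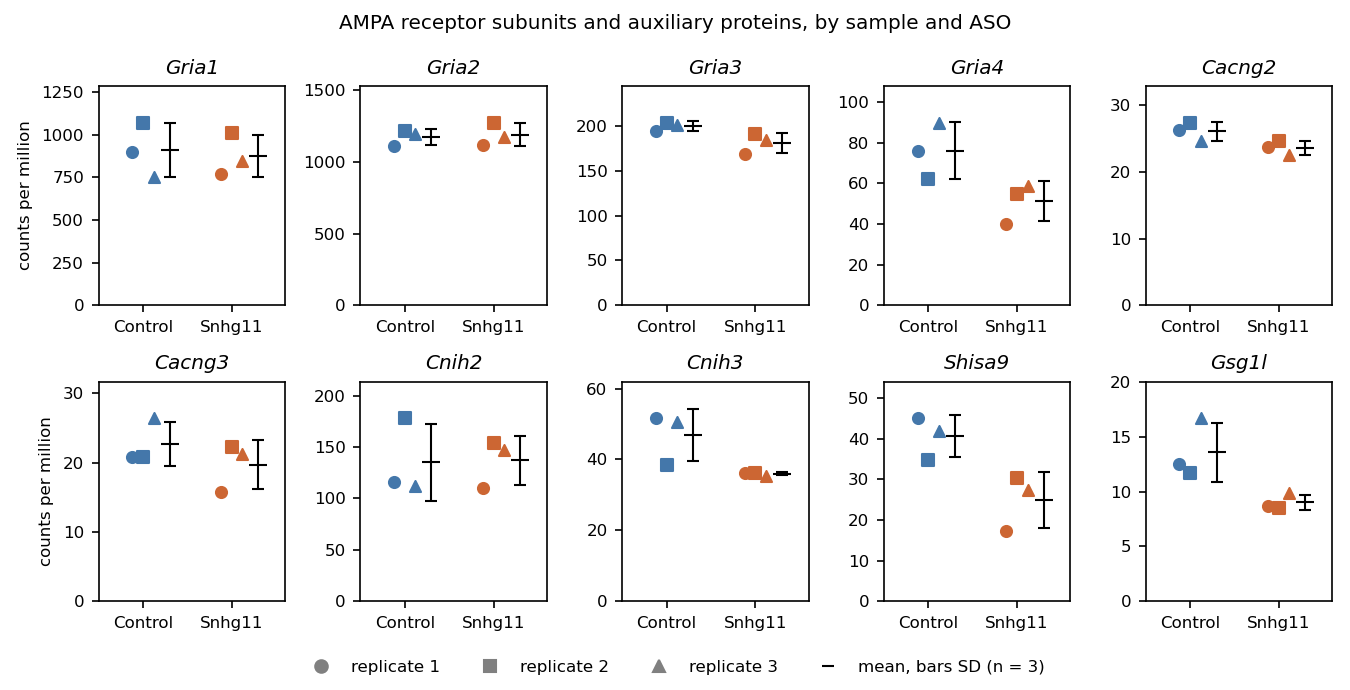
CPM (y axis, from 0) of the 10 AMPA receptor genes in each of the 6 dorsal hippocampi, by ASO (x axis). Marker shapes give the replicate number, and the black bars the mean and SD of 3 mice. Gria4, Shisa9, Gsg1l, Cnih3 and Gria3 show no overlap between groups, and Gria1, Gria2, Cacng3 and Cnih2 overlap. For Cacng2 the groups are apart, but the closest samples are equal to 3 digits.

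Among the subunits, the main ones of the adult hippocampus, Gria1 and Gria2, were at like levels in both groups. Gria2 (ENSMUSG00000033981, chr3:80681450-80802835, minus strand), which sets the calcium permeability of the receptor, had 1112, 1217 and 1196 CPM with Control-ASO and 1121, 1275 and 1173 CPM with Snhg11-ASO. The groups overlapped, with means of 1175 ± 55.7 and 1190 ± 78.4 CPM (SD, n = 3), and the log2 fold change was 0.018 (standard error 0.10), or 0.059 without Snhg11-ASO replicate 1. Gria1 (ENSMUSG00000020524, chr11:57011387-57330244, plus strand), the subunit most tied to activity-dependent delivery to synapses, was counted at 900, 1072 and 754 CPM against 771, 1011 and 847 CPM. Its groups overlapped too, with a log2 fold change of -0.053 (standard error 0.17), which turned to 0.12 when the trend with span was removed and to 0.032 without Snhg11-ASO replicate 1. For both genes the estimate was smaller than its standard error, which does not show that the level was equal.

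Gria3 (ENSMUSG00000001986, chrX:41400854-41678601, plus strand), a partner of Gria2 in hippocampal receptors, had 194, 204 and 201 CPM with Control-ASO and 169, 191 and 184 CPM with Snhg11-ASO. The groups did not overlap, and the mean of 181 ± 11.4 CPM (SD, n = 3) was 90.9% of the Control-ASO mean of 200 ± 5.3 (SD, n = 3), with a two-sided exact permutation p of 0.1, the smallest possible with these group sizes. In edgeR the log2 fold change came to -0.14 (standard error 0.085, adjusted p = 0.711). It was -0.088 without Snhg11-ASO replicate 1. It was 0.011 once the trend with genomic span was removed, so its direction depended on that correction.

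Gria4 (ENSMUSG00000025892, chr9:4417896-4796234, minus strand) is known from interneurons and from the young brain, and was the subunit with the lowest level here. It had 76.0, 62.0 and 89.9 CPM with Control-ASO and 40.0, 54.6 and 58.8 CPM with Snhg11-ASO. Every Snhg11-ASO sample lay below every Control-ASO sample, and Snhg11-ASO replicate 1 was the lowest of all. The mean of 51.1 ± 9.82 CPM was 67.3% of the Control-ASO mean of 76.0 ± 14 (SD, n = 3). In edgeR its log2 fold change came to -0.57 (standard error 0.19), with an unadjusted p of 0.0187 and an adjusted p of 0.545. It was -0.42 without Snhg11-ASO replicate 1, and -0.37 once the trend with span was removed, with an unadjusted p in edgeR of 0.097, or of 0.0382 when the replicate number was also a block. The gene covers 378 kb, the most of the 10.

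**Figure D2:**
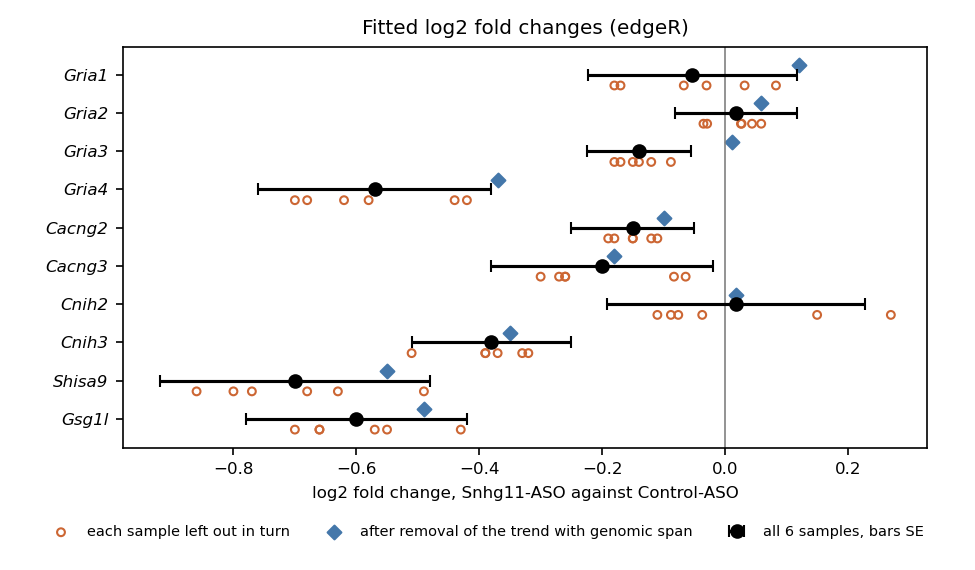
Log2 fold change of Snhg11-ASO against Control-ASO (x axis) for each AMPA receptor gene (y axis), from edgeR. Black points are all 6 samples with the standard error, open circles leave out each sample in turn, and diamonds follow removal of the trend with genomic span. Shisa9, Gsg1l, Gria4, Cnih3, Cacng2 and Cacng3 stay below 0 throughout, while Gria1 and Gria3 move above 0 with the span correction.

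Of the TARPs, both were somewhat lower in mean and neither came near the threshold. Cacng2 (ENSMUSG00000019146, chr15:77991748-78120028, minus strand), the TARP that anchors receptors to the scaffold PSD-95, was counted at 26.3, 27.4 and 24.6 CPM against 23.7, 24.6 and 22.6 CPM. The lowest Control-ASO and highest Snhg11-ASO samples were equal to 3 digits, and edgeR gave a log2 fold change of -0.15 (standard error 0.10) with an adjusted p of 0.743, and again -0.15 without Snhg11-ASO replicate 1. Cacng3 (ENSMUSG00000066189, chr7:122670492-122769393, plus strand), a TARP of forebrain neurons, was counted at 20.8, 20.8 and 26.4 CPM against 15.7, 22.2 and 21.2 CPM. The groups overlapped, and the log2 fold change of -0.20 (standard error 0.18) shrank to -0.064 without Snhg11-ASO replicate 1. An antisense gene, A730060N03Rik, overlaps the start of Cacng2. Counting used strand, and 0.836% to 1.34% of the pairs at Cacng2 fell on the opposite strand.

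The cornichon homologues differed in their values. Cnih2 (ENSMUSG00000024873, chr19:5092868-5098521, minus strand), the main cornichon of hippocampal pyramidal cells, had 116, 178 and 112 CPM with Control-ASO and 110, 154 and 147 CPM with Snhg11-ASO. The groups overlapped almost fully, with a log2 fold change of 0.018 (standard error 0.21), or 0.15 without Snhg11-ASO replicate 1. Cnih3 (ENSMUSG00000026514, chr1:181352628-181460641, plus strand), its close relative, was counted at 51.6, 38.5 and 50.6 CPM against 36.2, 36.2 and 35.4 CPM. The 3 Snhg11-ASO samples lay close together and just below Control-ASO replicate 2, well below the other two controls. Their mean of 35.9 ± 0.443 CPM was 76.6% of the Control-ASO mean of 46.9 ± 7.26 (SD, n = 3), with a log2 fold change of -0.38 (standard error 0.13, unadjusted p = 0.0215, adjusted p = 0.551 in edgeR). The estimate was -0.35 after removal of the span trend and -0.39 without Snhg11-ASO replicate 1. Whether Cnih2 and Cnih3 differed in response was read from their ratio per kilobase of exon, which was 4.53, 9.28 and 4.43 with Control-ASO and 6.10, 8.54 and 8.33 with Snhg11-ASO. The ratios overlapped (two-sided exact permutation test, p = 0.4), so a difference between the pair was not shown.

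Shisa9 and Gsg1l were lower in each Snhg11-ASO sample, like Gria4. Shisa9 (ENSMUSG00000022494, chr16:11984113-12270902, plus strand), known as CKAMP44 and prominent in dentate granule cells, had 45.1, 34.9 and 42.0 CPM with Control-ASO and 17.2, 30.4 and 27.5 CPM with Snhg11-ASO. The groups did not overlap, and Snhg11-ASO replicate 1 was far below the other two. The mean of 25.0 ± 6.96 CPM was 61.6% of the Control-ASO mean of 40.7 ± 5.24 (SD, n = 3), with a log2 fold change of -0.70 (standard error 0.22, unadjusted p = 0.0162, adjusted p = 0.536 in edgeR). Without Snhg11-ASO replicate 1 the estimate was smaller, -0.49, and its unadjusted p in edgeR was 0.00688. Over the 18 alternative fits the adjusted p of Shisa9 from edgeR or DESeq2 ranged from 0.0518 to 0.979. Gsg1l (ENSMUSG00000046182, chr7:125878420-126082411, minus strand), which lowers receptor currents and was the lowest of the 10 genes per length, was counted at 12.5, 11.7 and 16.7 CPM against 8.73, 8.47 and 9.83 CPM. All 3 Snhg11-ASO samples were below all 3 controls, and the spread among them was smaller than among the controls. The mean of 9.01 ± 0.719 CPM was 66.1% of 13.6 ± 2.71 (SD, n = 3), with a log2 fold change of -0.60 (standard error 0.18, unadjusted p = 0.0115, adjusted p = 0.512 in edgeR). It was -0.57 without Snhg11-ASO replicate 1 and -0.49 after removal of the span trend. These values rest on 655 to 1416 read pairs per library for Shisa9 and 333 to 563 for Gsg1l.

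Sample by sample, the median of the 6 auxiliary genes against their Control-ASO means was -0.046, -0.16 and 0.089 on the log2 scale with Control-ASO and -0.44, -0.22 and -0.30 with Snhg11-ASO. For the 4 subunits it was -0.021, 0.041 and 0.020 against -0.23, 0.028 and -0.10. The auxiliary medians did not overlap between groups, and the subunit medians did.

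The makeup of the receptor pool was read as shares of the summed counts per kilobase of exon, which need no scaling between libraries. Gria1 held 59.1%, 62.0% and 52.8% of the 4 subunits with Control-ASO and 57.2%, 60.3% and 57.5% with Snhg11-ASO. Gria2 held 28.4%, 27.4% and 32.5% against 32.3%, 29.6% and 31.0%. Its mean share was 29.4% ± 2.75 and 31.0% ± 1.37 (SD, n = 3), a difference of 1.53 percentage points (two-sided exact permutation test, p = 0.5). Leaving out Control-ASO replicate 1, 2 or 3 made that difference 1.0, 0.50 or 3.10, and leaving out Snhg11-ASO replicate 1 made it 0.86, so its size depended on single mice. Gria3 held 6.99% to 8.64% in all samples. Gria4 held 4.78%, 3.44% and 6.03% against 2.85%, 3.12% and 3.83%, and these groups overlapped (two-sided exact permutation test, p = 0.2). Set against Gria2 alone, the Gria4 level was 0.169, 0.126 and 0.185 of it with Control-ASO and 0.0881, 0.106 and 0.124 with Snhg11-ASO. These groups were apart only by a margin of 0.126 to 0.124 (two-sided exact permutation test, p = 0.1). Merged exon length counts bases that not every transcript holds, and Gria2 has the longest at 15548 bases, so these shares compare samples better than genes.

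**Figure D3:**
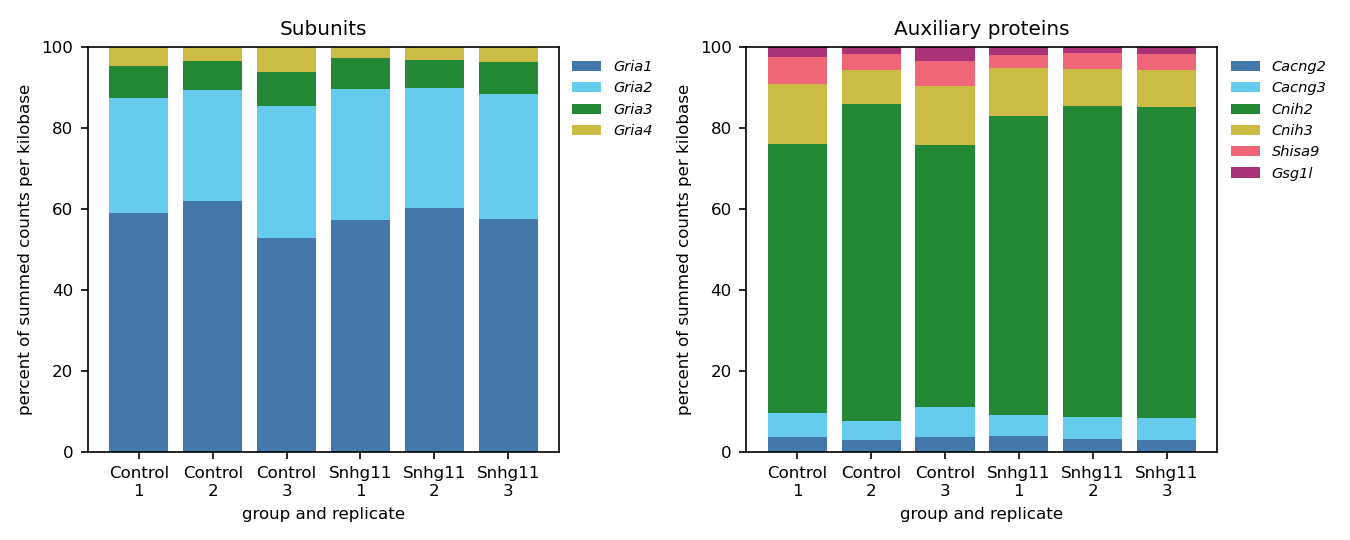
Share of each gene in the summed counts per kilobase of exon (y axis, percent) of the 4 subunits on the left and the 6 auxiliary proteins on the right, for each mouse (x axis). Gria1 and Gria2 make up most of the subunit sum and Cnih2 most of the auxiliary sum in every sample. The Shisa9 band is thinner in all 3 Snhg11-ASO mice, at the closest by 3.97% against 4.01%.

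Cnih2 made up 66.5%, 78.3% and 64.6% of the auxiliary sum with Control-ASO and 73.7%, 77.0% and 76.8% with Snhg11-ASO. The Shisa9 share was 6.74%, 4.01% and 6.35% against 3.01%, 3.97% and 3.76%, and it was the one auxiliary share whose groups did not overlap, by a margin of 4.01% to 3.97%. The ratio of the auxiliary sum to the subunit sum was 0.506, 0.580 and 0.534 with Control-ASO and 0.488, 0.527 and 0.573 with Snhg11-ASO. These overlapped (two-sided exact permutation test of the log2 ratio, p = 0.7), with a log2 difference of -0.03 that turned to 0.023 without Control-ASO replicate 2 and to 0.027 without Snhg11-ASO replicate 1. On plain counts, without division by length, it was -0.16, with an exact permutation p of 0.1, the smallest possible here. Cnih2 alone held 64.6% or more of the auxiliary sum in each sample.

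Levels of different genes were compared per length, as CPM divided by kilobases of merged exon (RPKM), over the Control-ASO samples. Gria1 (150 ± 26.3), Cnih2 (98.8 ± 27.1) and Gria2 (75.6 ± 3.58) were the highest, and Gria1 and Cnih2 overlapped. Gria3 (20.2 ± 0.537), Cnih3 (17.0 ± 2.64) and Gria4 (12.1 ± 2.21) came next, and Cnih3 and Gria4 overlapped. Cacng3 (8.17 ± 1.17), Shisa9 (7.76 ± 1.0), Cacng2 (4.74 ± 0.256) and Gsg1l (3.47 ± 0.690) were the lowest, and Cacng3 and Shisa9 overlapped (all SD, n = 3). The order of means was the same in the Snhg11-ASO samples. There the overlapping neighbours were Cnih2 with Gria2, Gria4 with Cacng3, Cacng3 with Shisa9 and Shisa9 with Cacng2. This order of genes holds for merged exon length only. That length was 15548 bases for Gria2, 9859 for Gria3 and 5242 for Shisa9. Their longest coding transcripts had 10371, 5192 and 4326 bases, and the order by that length was not read.

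Cell type markers were read beside these values, since AMPA receptor subunits and auxiliary proteins differ between the cells of the hippocampus. The 8 dentate granule cell markers (among them Prox1 and Calb1) summed to 340 to 407 CPM in Control-ASO and 363 to 455 CPM in Snhg11-ASO, and 0 of the 8 were at an unadjusted p under 0.05. The 4 markers of excitatory neurons summed to 836 to 987 CPM against 819 to 1035 CPM. Markers of the other fields of the labelled tissue were present as well, those of CA1 (381 to 455 against 355 to 437 CPM) and those of CA2 and CA3 (247 to 307 against 257 to 308 CPM). The sum of the 4 general neuron markers was lower without overlap, at 2060 to 2321 against 1764 to 1972 CPM. Among these, Syt1 and Tubb3 were lower without overlap, while Snap25 and Rbfox3 overlapped. All 6 interneuron markers were lower in mean, 2 of them (Sst and Vip) at an unadjusted p under 0.05, as were 4.43% of all genes tested. Gad1, Sst and Vip were lower without overlap (7.7% of all genes tested were), while Gad2, Slc32a1 and Pvalb overlapped. The sum of the 6 did not overlap (411 to 453 against 340 to 388 CPM). The 3 markers of oligodendrocyte precursors, which also carry AMPA receptors, were all lower too, with sums of 112 to 122 against 61.1 to 111 CPM that did not overlap. The lowest of these sums was Snhg11-ASO replicate 1, with Gpr17 at 1.23 CPM, and without it the log2 fold changes moved from -0.80 to -0.25 for Gpr17 and from -0.51 to -0.31 for Cspg4. Gria4 was lower in mean, as were the interneuron and precursor lists. Within Control-ASO Gria4 had 76.0, 62.0 and 89.9 CPM, with interneuron sums of 453, 426 and 411 and precursor sums of 112, 122 and 120. Within Snhg11-ASO Gria4 had 40.0, 54.6 and 58.8 CPM, with sums of 370, 340 and 388 and of 61.1, 91.5 and 111. The part of these cells in the lower Gria4 level was not tested.

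Choroid plexus, a tissue that borders the dissected part, differed widely between libraries. Its 5 markers summed to 1882, 35.9 and 1219 CPM with Control-ASO and to 1287, 121 and 65.6 CPM with Snhg11-ASO. Control-ASO replicate 2, the control with the least of it, had the lowest Gria4, Cnih3, Shisa9 and Gsg1l of the 3 controls. Snhg11-ASO replicates 2 and 3, also with little of it, lay below that control for all 4 genes, and so did Snhg11-ASO replicate 1, with much of it. The markers of infiltrating immune cells summed to 2.91 to 4.52 against 5.19 to 9.10 CPM. Only 1 of them, Ly6c2, was higher without overlap (0.306, 0.535 and 0.564 against 2.88, 1.6 and 1.79 CPM), while Ccr2, Ms4a7 and Itgal overlapped and Cd3e was too low to be tested. Thalamus markers summed to 29.1 to 41.3 against 41.8 to 51.3 CPM, and again 1 gene, Prkcd, was apart (19.2, 21.4 and 17.6 against 31.2, 35.0 and 32.5 CPM), while Tcf7l2, Ramp3 and Calb2 overlapped and the list median log2 fold change was -0.042. DESeq2 called Ly6c2 at an adjusted p of 8.9e-04 and Prkcd at 1.6e-05. In edgeR their adjusted p was 0.308 and 0.304. Sums overlapped for astrocytes (1130 to 3016 against 1493 to 3578 CPM), oligodendrocytes (1433 to 2644 against 1578 to 3278), microglia (160 to 278 against 74.6 to 256) and endothelial cells (102 to 133 against 105 to 129). The part of these cells in the AMPA receptor values was not tested.

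The other genes of the receptor's life cycle were read from 3 lists. Of 28 further auxiliary and assembly genes, 15 were lower and 13 higher, 3 each way at an unadjusted p under 0.05, with a median log2 fold change of -0.014, and 0 passed the adjusted threshold in edgeR. Over all 19969 genes tested, 885 (4.43%) were lower and 734 higher at that unadjusted level. Cacng7, a TARP like Cacng2, was counted at 29.8, 26.8 and 32.7 CPM against 24.5, 22.3 and 18.9 CPM (log2 fold change -0.44, unadjusted p = 0.0156 in edgeR). Cacng5, another of that family, went the other way at 10.8, 13.5 and 7.42 against 24.5, 18.4 and 14.4 CPM (0.86, unadjusted p = 0.0169 in edgeR). Nptx1, a secreted pentraxin that gathers AMPA receptors, was at 289, 286 and 235 against 426, 361 and 307 CPM (0.43, unadjusted p = 0.0225 in edgeR). Nrn1 (neuritin), found in native AMPA receptor complexes, was at 126, 150 and 122 against 182, 173 and 158 CPM (0.36, unadjusted p = 0.0138 in edgeR), so neither of these overlapped between groups. Olfm2 (noelin 2), a secreted partner of the receptor, was at 21.1, 15.3 and 27.6 against 16, 10.9 and 13.1 CPM, with overlap (-0.68, unadjusted p = 0.0276 in edgeR).

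Of 29 trafficking and anchoring genes, 20 were lower and 9 higher, with 3 lower and 2 higher at an unadjusted p under 0.05, 0 past the adjusted threshold in edgeR and a median log2 fold change of -0.043. Exoc4, a subunit of the exocyst that tethers vesicles to the membrane, was at 108, 116 and 109 against 77.0, 94.5 and 84.5 CPM (log2 fold change -0.38, unadjusted p = 0.00672 in edgeR). Dlg2 (PSD-93), a scaffold of the postsynaptic density, was at 396, 389 and 378 against 293, 339 and 269 CPM (-0.37, unadjusted p = 0.0115 in edgeR). Dlg1 (SAP97), which binds Gria1, was at 114, 103 and 151 against 98.9, 95.2 and 91.9 CPM (-0.36, unadjusted p = 0.0421 in edgeR). These 3, named for an unadjusted p under 0.05, were lower without overlap. Of the 29 genes, 6 were lower and 2 higher without overlap, where 7.7% of all genes tested were lower without overlap. At an unadjusted p under 0.05, 4.43% of all genes tested were lower in edgeR, and 734 of the 19969 were higher. The genes of these lists were not read with the trend with genomic span removed. Arc, an immediate early gene whose protein promotes internalization of AMPA receptors, was at 83.0, 51.4 and 84.4 against 99.2, 115 and 144 CPM (0.71, unadjusted p = 0.0147 in edgeR). Sdcbp (syntenin), a PDZ adaptor, was at 167, 209 and 189 against 232, 225 and 229 CPM (0.28, unadjusted p = 0.0305 in edgeR). Both were higher in each Snhg11-ASO sample. Without Snhg11-ASO replicate 1 the genes named from both lists kept their direction, and Cacng5 moved from 0.86 to 0.64.

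All 3 genes of the RNA editing list were lower in mean. Adar (ADAR1) had 135, 119 and 124 CPM with Control-ASO and 96.8, 93.1 and 81.5 CPM with Snhg11-ASO, with no overlap. In edgeR its log2 fold change came to -0.48 (standard error 0.10), with an unadjusted p of 0.0021 and an adjusted p of 0.415, and DESeq2 called it at an adjusted p of 0.0137. Adarb1, the ADAR2 enzyme that edits the Gria2 codon shown above, was at 154, 163 and 158 against 160, 156 and 130 CPM, with overlap and a log2 fold change of -0.09 (standard error 0.10). Adarb2, which has no known editing activity, had a log2 fold change of -0.19 (standard error 0.20), or -0.043 without Snhg11-ASO replicate 1.

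**Figure D4:**
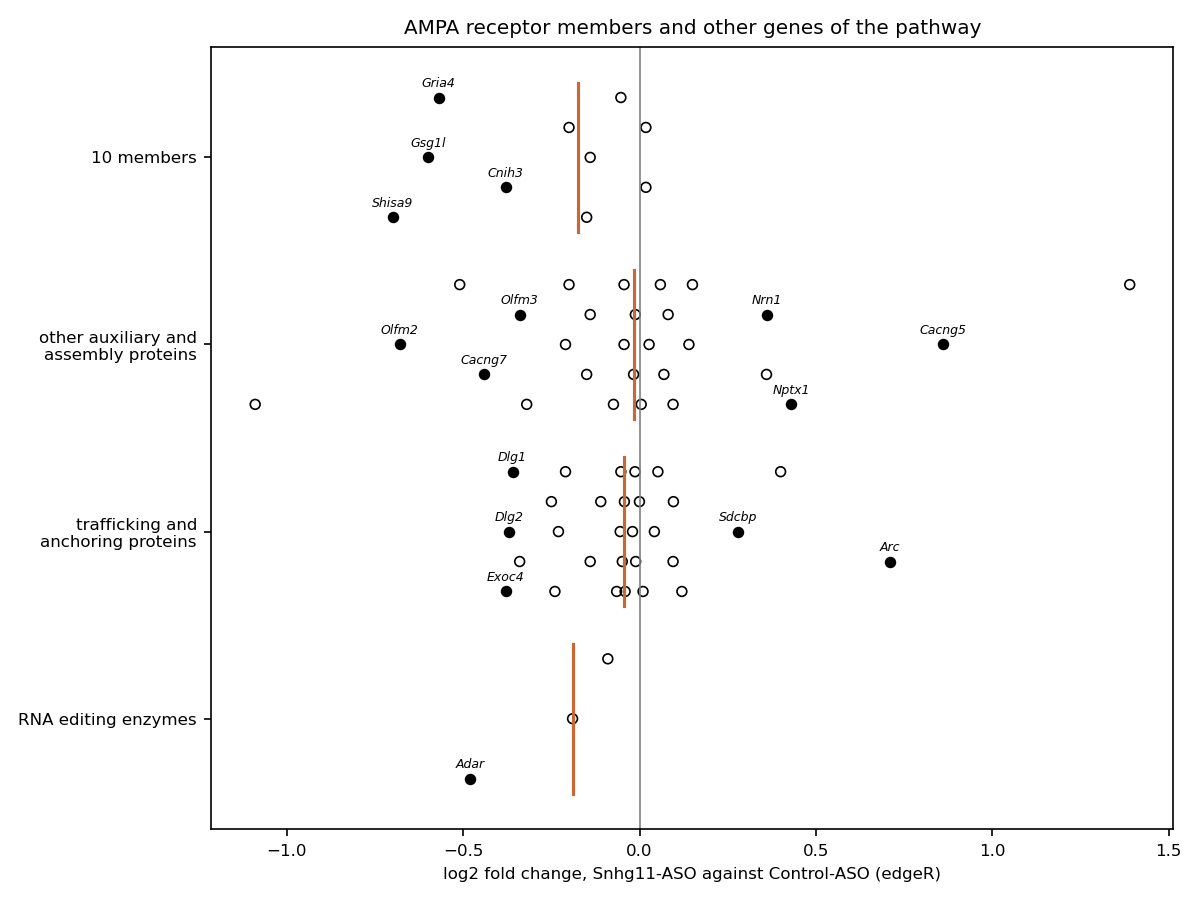
Log2 fold changes (x axis, Snhg11-ASO against Control-ASO, edgeR) of the 10 AMPA receptor genes and of 3 lists of other genes of the pathway (rows, with points spread vertically for legibility only). Filled, named points have an unadjusted p under 0.05 and orange bars are list medians: those among the 10 genes all lie below 0, while the other auxiliary and the trafficking lists hold filled points on both sides.

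Over the 6 samples, the members followed each other to different degrees. The mean of their standardized log2 CPM was 0.29, 0.59 and 0.54 with Control-ASO and -1.19, 0.12 and -0.35 with Snhg11-ASO, so Snhg11-ASO replicate 1 weighs most in this profile. Pearson's r of a member with the mean of the other 9 was 0.99 for Gria3, 0.89 for Shisa9, 0.78 for Gria4 and 0.76 for Cacng3, and 0.23 to 0.58 for the other six, with Cnih2 the lowest. Outside the 10 genes, those most like the mean profile were Sptbn1 (r = 0.996), the unclassified transcript Gm44433 (0.995), Stau2 (0.994), Sdccag8 (0.994) and Tmem246 (0.993). These correlations are descriptions over 6 samples that share the groups and the sample that stood apart. Sptbn1, a spectrin of the membrane skeleton, was counted at 1162, 1184 and 1189 CPM against 942, 1133 and 1049 CPM, and Stau2, an RNA-binding protein that carries mRNA into dendrites, at 90.8, 92.8 and 94.1 against 74.2, 87.9 and 84.2 CPM.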

How the data were processed

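RNA was extracted with TRIzol and sequenced as ribo-depleted, stranded TruSeq libraries. The authors aligned read pairs to the mouse genome (mm10, GRCm38) with STAR 2.5.2a, per the labels, and deposited raw counts per gene and sample, with no normalization or pooling. The study's methods name another counting tool, but the files have the layout of STAR's own counts, in which pairs on more than 1 gene or place are left out. Lines that name no gene held 43.5% to 51.4% of pairs and were left out. Counts on the strand the kit predicts were used (96.2% to 96.8% of stranded gene counts). The study removed 1 sample that it does not name, and all 6 were kept here. It gives the animals as separate mice.

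Genes were filtered with filterByExpr (minimum count 10), scaled with TMM factors and tested with the quasi-likelihood test of edgeR (R 4.3.3, edgeR 4.0.16) over 19969 genes with Benjamini-Hochberg adjustment at 0.05. The common biological coefficient of variation was 0.266. The standard error is the size of the log2 fold change over the square root of F. Gene models were from GENCODE M21. Between 28951250 and 43997537 pairs per library counted toward genes, and the 10 members drew 333 pairs or more in each. The scripts were tested on simulated counts. Named genes are the 10 members, Snhg11, of each pathway list those at an unadjusted p under 0.05 (at most 5 by smallest p), and the 5 genes most like the members' mean profile, with a mean of at least 1 CPM. Single marker genes, genes that overlap a member, Adarb1 and Adarb2 are named outside this rule, after their values were seen. The members, lists and tests were chosen with earlier results of these data known.

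Same-numbered samples of the groups deviated from their group means together (r = 0.297, 0.179 and 0.103 over genes). On this check alone the replicate number was used as a block, in alternative fits only. The main fit and the exact permutation tests quoted did not pair samples. Alternatives were DESeq2 1.42.0, edgeR with DESeq2's size factors or with upper-quartile factors, no filter, a mean of at least 10 counts, counts of both strands, a replicate block, offsets for the loess trend with genomic span (span 0.3) with and without the block, each sample left out, and DESeq2 without each Snhg11-ASO sample. Other experiments of the study were not analysed here.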

Additional observations from a re-analysis of the deposited data

How the results depend on the processing

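None of the 10 members was called under any of the 18 alternative fits, and 163 of their 180 fold changes kept direction. The 17 that turned were of Gria1, Gria2 and Cnih2, whose main estimates were near 0, and of Gria3, whose main estimate was -0.14 (standard error 0.085). Gria1 was 0.12 with the span offsets, 0.12 with the replicate block and the offsets, and 0.029 in DESeq2 without Snhg11-ASO replicate 1. Gria3 was 0.011 and 0.0099 with those offsets, without and with the block. Gria2 was -0.00045 with upper-quartile factors and -0.034 in DESeq2 without Snhg11-ASO replicate 2. Cnih2 was -0.075 and -0.034 in DESeq2 without Snhg11-ASO replicates 2 and 3. With 1 sample left out in edgeR, Gria1 ranged from -0.18 to 0.083, Gria2 from -0.035 to 0.059 and Cnih2 from -0.11 to 0.27. The members' median ranged from -0.24 to -0.12 with 1 sample left out. With the replicate block it was -0.18, 0 genes were called, and the pairing changed no call. Over all genes the count called was 0 in edgeR, 0 to 2 with 1 sample left out (2 without Snhg11-ASO replicate 1), 258 in DESeq2, and 347, 275 and 223 in DESeq2 without Snhg11-ASO replicates 1, 2 and 3, so calls depend on the tool. The log2 difference of the auxiliary to subunit ratio was -0.03 (-0.089 to 0.027 with 1 sample left out), and -0.16 on plain counts without division by length (exact permutation p = 0.1 against 0.7), where Cnih2, the shortest gene, weighs less. The count of members lower at an unadjusted p under 0.05, an alternative added after seeing the data, was 2 to 4 in all fits. The difference in Gria2 share ranged from 0.50 to 3.10 percentage points with 1 sample left out. Gsg1l had the fewest counts.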

Other observations

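Among the further auxiliary and trafficking genes, the following outside the naming rule were chosen after they were seen. Nptx2, a pentraxin induced by activity, had 18.5, 26.5 and 16.3 CPM with Control-ASO and 111, 23.6 and 26.4 CPM with Snhg11-ASO, so its log2 fold change of 1.39 (standard error 0.61) came mostly from Snhg11-ASO replicate 1 and was 0.29 without it. Shisa6, a relative of Shisa9, was at 84.2, 105 and 59.7 against 130, 107 and 81.9 CPM, with overlap and a log2 fold change of 0.36 (standard error 0.24). Cacng8, a TARP of hippocampal neurons, was at 56.0, 57.8 and 43.9 against 59.2, 61.4 and 54.4 CPM, with overlap. Frrs1l, which helps assemble receptors in the endoplasmic reticulum, was at 295, 550 and 476 against 355, 466 and 461 CPM. Dlg4 (PSD-95) was at 291, 337 and 275 against 311, 342 and 312 CPM. The values of both overlapped between groups.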
